A study of Mus musculus with 9 samples.

Results

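The sugar, amino acid and monocarboxylate transporters are here the 104 genes, of 23955 in the count table, whose symbol belongs to solute carrier family 1, 2, 3, 5, 6, 7, 15, 16, 36, 38 or 43, with 1 member of family 7 left out. The choice used names only and no measured value. RNA-seq was performed on 9 mouse organoid cultures, that is, epithelium grown in a gel, in 3 groups of 3 that the submitters call biological replicates. MIN organoids came from the normal-appearing gut next to the tumors of APCmin/+ mice, which carry 1 mutated copy of Apc in every cell. Adenoma organoids came from adenomatous polyps of the same kind of mouse, and the third group was adenoma organoids treated with the NSAID sulindac. All 3 groups therefore carry the Apc mutation, no wild-type culture was analysed here, and all were grown in the same medium with Noggin, EGF, bFGF, R-spondin1 and B27. The age of the mice, the gut segment, the number of animals behind the cultures and the dose and duration of sulindac in organoids are not given in the sources used here. The p-values therefore measure the spread between cultures.

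Solute carriers are membrane proteins that move nutrients across the plasma membrane or out of lysosomes. In the small intestine, an absorptive set in the brush border of the enterocyte takes up sugars, amino acids and peptides from the lumen with sodium or protons, and a second set in the basolateral membrane passes them on to the blood. A further set of broadly expressed carriers supplies glucose, glutamine, leucine and glycine to dividing cells and exports lactate. Several amino acid exchangers are heterodimers, in which a heavy chain (Slc3a1 or Slc3a2) brings a light chain of family 7 to the membrane.

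The samples held 30881206 to 48412477 counts. The unit is CPM, in which each library's counts are scaled to a common total after TMM, and a count of 3, taken as the floor of what the depth shows, lay at 0.0641 to 0.10 CPM. Of the 104 genes, 9 had 0 counts in all 9 samples and 18 had at most 3 counts in every sample, and 72 had enough counts for a test in at least 1 comparison. Intervals and floors cover counting error only. The cultures were epithelial by their markers, with a summed level of Epcam, Cdh1, Krt8, Krt18 and Krt19 of 4781 to 7287 CPM in the MIN cultures, 3049 to 4042 CPM in adenoma and 4217 to 5029 CPM after sulindac. The summed levels of 5 leukocyte, 6 mesenchyme, 3 endothelium and 4 neuron and glia markers were at most 4.09, 4.22, 0.572 and 1.13 CPM in any sample, and Col1a2, Col3a1, Dcn and Sox10 had 0 counts throughout. Some of these markers differed between MIN and adenoma. Itgam, a leukocyte marker, was lower in adenoma, at 0.365, 0.196 and 0.116 CPM against 3.87, 3.31 and 4.03 in MIN. The mesenchyme marker Pdgfrb, at 3.48, 3.76 and 3.46 CPM in MIN, reached at most 1 count in any adenoma culture. Pecam1 (endothelium) was also lower and Pdgfra (mesenchyme) higher in adenoma, both at most 1.09 CPM in any sample. Which cells they came from was not tested.

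Upstream sequences of 75 of the 104 genes were given in RefSeq (GRCm38.p6). The windows run from 250 bases before to 50 bases after a start site. Motifs were searched on both strands in 32851 windows of all genes and 98 windows of the transporters. The E-box CACGTG, bound by Myc and by the carbohydrate-response factor encoded by Mlxipl, was in 11 transporter windows (11.2%) and in 7.15% of all windows. The core TGATGNAA, bound by C/EBP-ATF dimers such as those of Atf4, was in 4 transporter windows (4.08%), those of Slc1a4, Slc7a7 and Slc15a5, and in 3.97% of all windows. A match describes the letters only. Below are stretches before the start site of transporters described in the results, shown as examples of windows that hold the E-box, which is in capitals in each.
Slc5a1 (chr5:33104036-33104121, + strand): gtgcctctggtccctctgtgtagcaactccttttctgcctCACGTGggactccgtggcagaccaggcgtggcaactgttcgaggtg
Slc16a1 (chr3:104638424-104638509, + strand): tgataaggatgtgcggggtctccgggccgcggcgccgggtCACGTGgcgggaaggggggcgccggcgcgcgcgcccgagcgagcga
Slc38a7 (chr8:95853492-95853565, - strand): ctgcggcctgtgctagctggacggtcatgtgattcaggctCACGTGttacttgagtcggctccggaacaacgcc
The E-box began 34 bases before the start site in Slc38a7, 143 in Slc5a1 and 200 in Slc16a1.

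The first comparison asks which transporters differ between adenoma and the adjacent normal epithelium. Most of those tested were lower in adenoma, among them the glucose carrier Slc5a1, the peptide carrier Slc15a1 and the lactate carrier Slc16a1. Of the 69 transporters tested, 42 were lower and 4 were higher in adenoma than MIN at a false discovery rate (FDR) of 1% (edgeR's quasi-likelihood test, adjusted over all genes), and 23 did not pass. Of all 13744 genes tested, 20.1% were lower and 18.5% were higher. The median log2 fold change was -1.13 over the transporters tested and -0.01 over all genes. The count needs care, because 16 of the 42 had at most 3 counts in every adenoma library and passed the filter on low counts only through MIN, where they were high, so that they had to differ. The same holds for 1 of the 4 higher genes, Slc6a13, which had 0 counts in MIN. In all, 20 of the 42 had under 10 counts in every adenoma library. Slc1a1, Slc3a1, Slc2a5 and Slc16a5 also passed the filter only through MIN, and they dropped out when 10 counts were asked of every sample. For these genes, and for those at or under 3 counts throughout a group, the values are given below with no p-value. The other 35 transporters did not pass that filter. Scaling by library size alone moved the median of all genes by 0.13 and gave 39 lower and 5 higher transporters, while the share of higher genes among all calls moved from 48% to 57.7%.

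**Figure D1:**
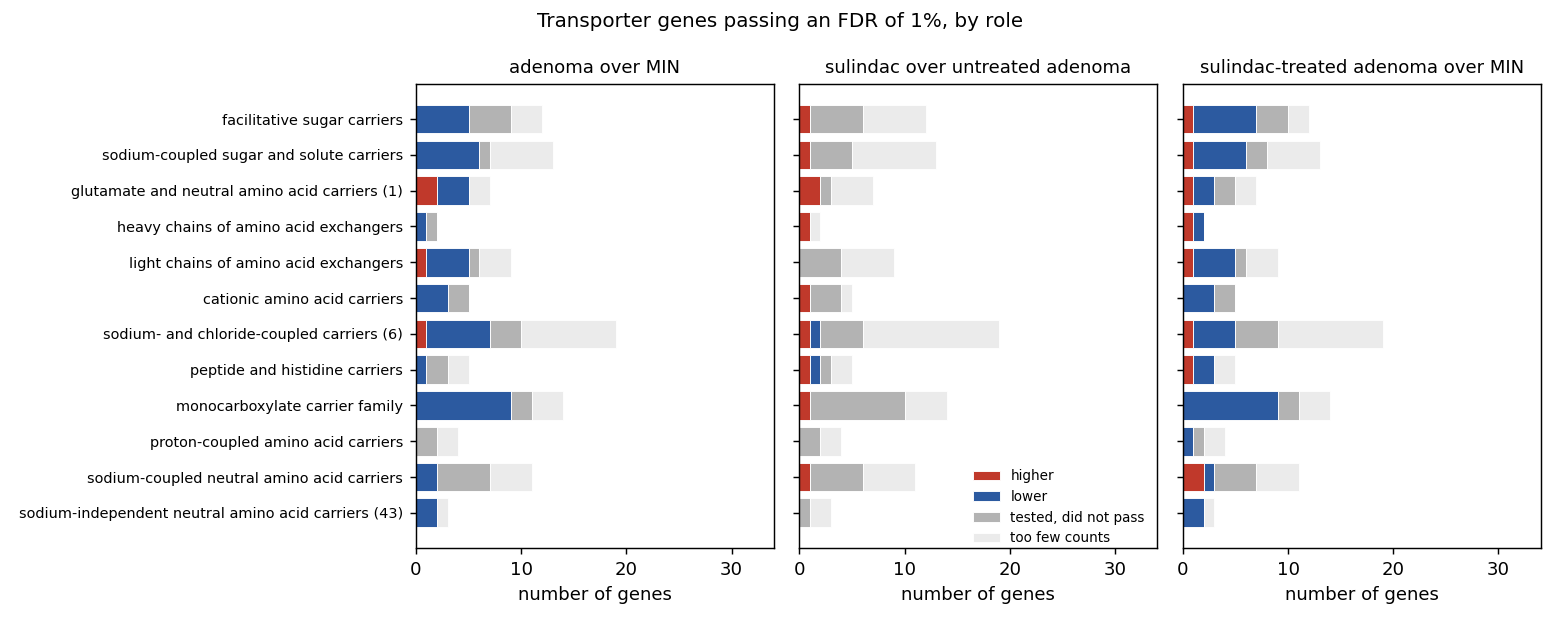
Number of transporter genes (x axis) in each of 12 roles (y axis) that were higher (red), lower (blue), tested without passing an FDR of 1% (dark grey) or not tested for too few counts (light grey), in the 3 comparisons. In adenoma over MIN, lower genes make up most of the bar of the monocarboxylate family (9 of 14), and after sulindac most tested genes did not pass.

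The sodium-coupled glucose carrier of the brush border, Slc5a1, was at 656, 712 and 609 CPM in MIN, 17.4, 12.3 and 10.96 in adenoma and 8.94, 11.4 and 6.49 after sulindac. Every MIN culture was far above every adenoma culture, and the fitted difference was large (log2 fold change -5.60, SE 0.21, edgeR adjusted p = 1.99e-07). The basolateral glucose and fructose carrier Slc2a2 stood at 35.04, 31.3 and 22.7 CPM in MIN and 0.871, 0.615 and 0.781 in adenoma, also without overlap (log2 fold change -5.29, SE 0.24, edgeR adjusted p = 5.39e-07). Slc2a5, the fructose carrier of the brush border, had 40.7, 23.3 and 10.03 CPM in MIN and 0.197, 0.419 and 0.202 in adenoma (log2 fold change -6.48, SE 0.61). Its MIN level was lowest in replicate 3, the culture that also had the lowest summed level of 12 enterocyte markers. Slc5a4b, a sodium-coupled carrier related to Slc5a1, had 1219, 1008 and 517 counts in MIN and 1, 0 and 1 in adenoma (1167-fold lower by the ratio of pooled counts, 95% counting interval 323 to 9641). Slc5a8, a sodium-coupled carrier of short-chain fatty acids, had 4.99, 6.67 and 3.13 CPM in MIN and at most 2 counts in adenoma (134-fold lower by the ratio of pooled counts, 95% counting interval 52.2 to 495). Slc2a13, which carries myo-inositol with protons, was at 3.36, 3.06 and 1.83 CPM in MIN and at 0 counts in all adenoma cultures (at least 32.3-fold lower). In all, 11 of the 25 genes of families 2 and 5 were lower in adenoma, with 5 not called and 9 not tested.

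**Figure D2:**
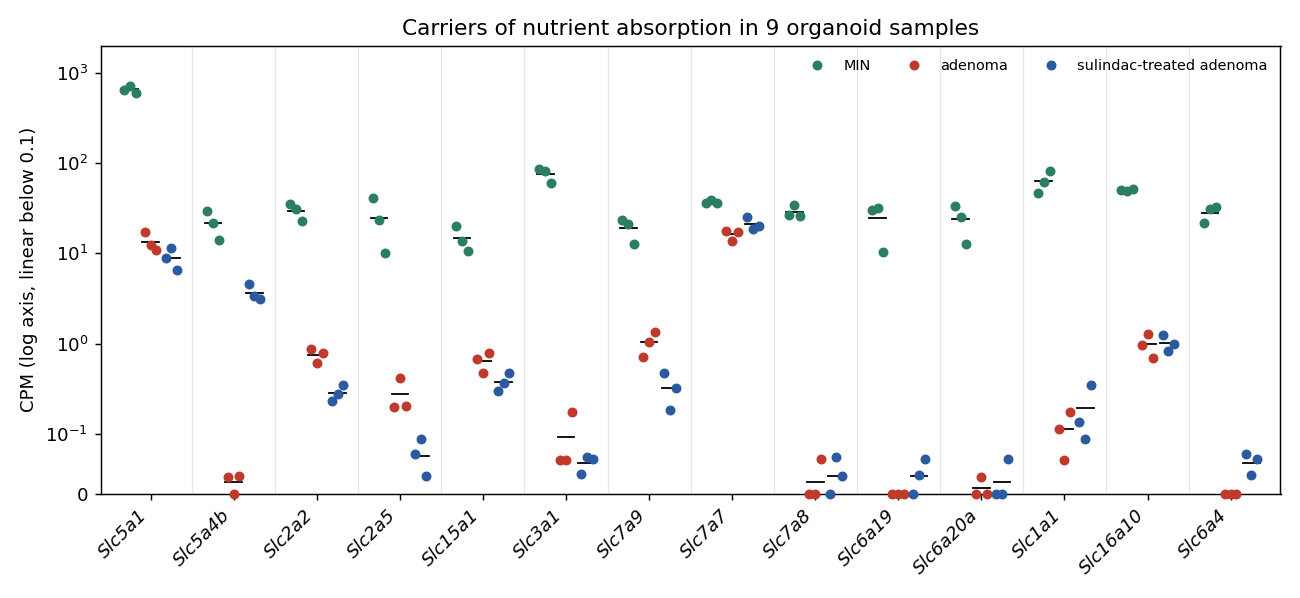
CPM (y axis, log scale above 0.1 and linear below) of 14 carriers (x axis), those of nutrient absorption and the serotonin carrier Slc6a4, in each of 3 MIN (green), 3 adenoma (red) and 3 sulindac-treated adenoma (blue) cultures, with black lines at the group means. The MIN points lie above the adenoma points for each gene, and Slc5a4b is the gene whose treated cultures are furthest above the untreated ones.

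Several carriers of amino acids and peptides in the brush border were also lower in adenoma. The peptide carrier Slc15a1 was at 19.98, 13.7 and 10.7 CPM in MIN and 0.674, 0.475 and 0.781 in adenoma (log2 fold change -4.52, SE 0.32, edgeR adjusted p = 6.54e-06). Slc6a19, the main neutral amino acid carrier of the small intestine, had 30.7, 32.3 and 10.5 CPM in MIN, lowest in replicate 3, and 0 counts in all adenoma cultures (at least 288-fold lower). The imino acid carrier Slc6a20a had 1391, 1191 and 463 counts in MIN and 0, 1 and 0 in adenoma (2590.1-fold lower by the ratio of pooled counts, 95% counting interval 465 to 102337). Its counts are uncertain, since 26.7% of its 50-base stretches also lie in transcripts of other genes, 15.3% in those of its copy Slc6a20b, and 14.3% of its exonic length overlaps another gene. The glutamate carrier Slc1a1 was at 47.2, 62.2 and 81.6 CPM in MIN and 0.112, 0.0559 and 0.173 in adenoma (log2 fold change -9.09, SE 0.35). Of its exonic length, 32.0% overlaps 4430402I18Rik on the other strand, so its counts are uncertain, and that gene was at 0.608, 0.855 and 1.01 CPM in MIN. The heavy chain Slc3a1, which forms the cystine and dibasic amino acid carrier with Slc7a9, was at 87.3, 80.98 and 60.8 CPM in MIN and 0.0562, 0.0559 and 0.173 in adenoma (log2 fold change -9.61, SE 0.31). Its partner Slc7a9 was at 23.6, 21.4 and 12.6 CPM in MIN and 0.702, 1.03 and 1.36 in adenoma (log2 fold change -4.21, SE 0.33, edgeR adjusted p = 1.19e-05). Of the exonic length of Slc3a1, 26.5% overlaps Prepl on the other strand, which was at 63.3, 65.3 and 65.8 CPM in MIN and 54.9, 62.5 and 60.6 in adenoma. Both chains were lower in adenoma, with no overlap between the groups, and the heavy chain was at or near the floor there.

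On the basolateral side, the light chains Slc7a7 and Slc7a8, both partners of Slc3a2, differed in size of change. Slc7a7, which exports dibasic amino acids, was at 36.6, 39.6 and 36.4 CPM in MIN and 17.9, 13.8 and 17.3 in adenoma (log2 fold change -1.20, SE 0.13, edgeR adjusted p = 9.1e-05). Slc7a8, an exchanger of neutral amino acids, had 1086, 1611 and 960 counts in MIN and 0, 0 and 2 in adenoma (1555-fold lower by the ratio of pooled counts, 95% counting interval 430.3 to 12848). Slc7a7 thus stayed above the floor in adenoma while Slc7a8 was under it. Of the exonic length of Slc7a7, 8.82% overlaps Oxa1l on the other strand, so the level of Slc7a7 is uncertain. Oxa1l was at 108, 132 and 134 CPM in MIN and 93.8, 88.2 and 112 in adenoma. Slc16a10, a basolateral carrier of aromatic amino acids, was at 50.4, 48.8 and 51.4 CPM in MIN and 0.955, 1.29 and 0.694 in adenoma (log2 fold change -5.67, SE 0.20, edgeR adjusted p = 1.62e-07). Both members of family 43 tested, which carry branched-chain and other neutral amino acids, were lower. Slc43a2 was at 32.97, 26.3 and 20.6 CPM in MIN and 9.998, 9.86 and 5.99 in adenoma (log2 fold change -1.63, SE 0.24, edgeR adjusted p = 0.000549). Slc43a1 was at 7.20, 4.51 and 3.92 CPM in MIN and 0 in adenoma (at least 61.4-fold lower).

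Carriers of neurotransmitters were among the genes at the floor in adenoma. The serotonin carrier Slc6a4, which clears serotonin released by enteroendocrine cells, was at 21.6, 31.1 and 32.4 CPM in MIN and had 0 counts in all adenoma cultures (at least 334-fold lower). The glutamate carrier Slc1a3 was at 4.62, 3.61 and 3.68 CPM in MIN and 0 in adenoma (at least 46.8-fold lower). All MIN cultures were above the floor for both genes. The reverse was seen for the GABA carrier Slc6a13, with 0 counts in all MIN cultures and 33, 71 and 89 counts in adenoma (at least 25.1-fold higher).

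Markers of the enterocyte were lower in the same cultures. All 12 markers fixed for the enterocyte (Alpi, Vil1, Fabp1, Fabp2, Apoa1, Apoa4, Lct, Sis, Anpep, Mttp, Rbp2 and Krt20) were lower in adenoma at an FDR of 1%, with Alpi and Lct at no more than 3 counts in any adenoma culture. Fabp1, Apoa1, Apoa4 and Rbp2 had under 10 counts in every adenoma culture. Like Alpi and Lct, they passed the filter on low counts only through MIN and had to differ. The summed level of the 12 markers was 4089 to 6315 CPM in the MIN cultures, 258 to 287 CPM in adenoma and 322 to 373 CPM after sulindac, and none of the 12 had 0 counts in all samples. Of 7 markers of stem and dividing crypt cells, Ascl2 and Axin2 were higher, Lgr5 and Olfm4 were lower and 3 did not pass. Mki67, a gene of dividing cells, did not pass (log2 fold change -0.63, SE 0.21, edgeR adjusted p = 0.0366). It passed in 0 of the 6 fits that left out 1 library, but did pass with the replicate number as a block (log2 fold change -0.66, edgeR adjusted p = 0.00491). Top2a, another gene of dividing cells, did not pass with the block (edgeR adjusted p = 0.0281). The summed level of the 7 markers was 2290.1 to 3782 CPM in the MIN cultures, 1624 to 2412 CPM in adenoma and 1278 to 1585 CPM after sulindac. In these bulk samples, fewer cells of a type and less RNA per cell cannot be told apart, and the part of the enterocyte share in the transporter levels was not tested.

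Of the 14 genes of the monocarboxylate family, 9 were lower in adenoma, 2 did not pass and 3 were not tested. The carriers of lactate and pyruvate stayed well measured in adenoma. Slc16a1, which moves lactate in either direction, was at 239, 212 and 209 CPM in MIN and 114, 89.9 and 96.7 in adenoma (log2 fold change -1.13, SE 0.12, edgeR adjusted p = 8.13e-05). Slc16a3, the lactate exporter of glycolytic cells, was at 244, 206 and 213 CPM in MIN and 126, 123 and 154 in adenoma (log2 fold change -0.71, SE 0.13, edgeR adjusted p = 0.00148). The groups did not overlap for either gene. Bsg, which encodes the chaperone that both need to reach the membrane, was at 1005, 1071 and 1682 CPM in MIN and 2382, 2506 and 3539 in adenoma, in the other direction (log2 fold change 1.17, SE 0.24, edgeR adjusted p = 0.00357). That call held in 3 of the 6 fits that left out 1 library (highest edgeR adjusted p = 0.0184). Slc16a5, named here after its values were seen, was at 18.4, 16.6 and 22.2 CPM in MIN and 0.337, 0.168 and 0.173 in adenoma (log2 fold change -6.37, SE 0.29). The other lower members included Slc16a6, Slc16a10 and Slc16a11, and 24.3% of the exonic length of Slc16a6 overlaps Amz2 on the other strand. With the replicate number as a block, Slc16a11 did not pass (edgeR adjusted p = 0.0115), and it passed in 2 of the 6 fits that left out 1 library.

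The broadly expressed carriers were less uniform. Slc2a1, the glucose carrier of most dividing cells, was at 169.8, 147 and 205 CPM in MIN and 170.1, 164 and 189 in adenoma, with overlapping groups (log2 fold change 0.00, SE 0.14, edgeR adjusted p = 0.982). Slc1a4, an exchanger of alanine, serine and cysteine, was at 220.5, 245 and 331 CPM in MIN and 469, 465 and 498 in adenoma, where every culture was above every MIN culture (log2 fold change 0.85, SE 0.16, edgeR adjusted p = 0.00203). Its call was lost without MIN replicate 2 (edgeR adjusted p = 0.0123), and its log2 fold change stayed at 0.72 to 1.04 with each library left out. Its relative Slc1a5, the main glutamine carrier of dividing cells, went the other way, with 336, 313 and 408 CPM in MIN against 184, 179 and 195 in adenoma (log2 fold change -0.92, SE 0.13, edgeR adjusted p = 0.000336). The arginine and lysine carrier Slc7a1 was also lower, at 296, 320.3 and 363 CPM in MIN and 102, 118 and 51.5 in adenoma (log2 fold change -1.85, SE 0.27, edgeR adjusted p = 0.000515). The adenoma spread of Slc7a1 was wide, with replicate 3 the lowest. The light chain Slc7a6, an exchanger of dibasic for neutral amino acids, was higher in adenoma, at 74.5, 66.6 and 62.98 CPM against 49.1, 44.6 and 45.9 in MIN (log2 fold change 0.55, SE 0.11, edgeR adjusted p = 0.00238). Without MIN replicate 2 or adenoma replicate 1 it did not pass (highest edgeR adjusted p = 0.0171). Slc1a7, a glutamate carrier known best from the retina, was low but higher in adenoma, with 14, 15 and 11 counts in MIN and 29, 44 and 45 in adenoma (log2 fold change 1.79, SE 0.32, edgeR adjusted p = 0.00165).

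Several well-measured carriers did not pass between adenoma and MIN. The heavy chain Slc3a2 was at 193, 209.7 and 304 CPM in MIN and 167, 157 and 145 in adenoma (log2 fold change -0.59, SE 0.17, edgeR adjusted p = 0.019). Its light chain Slc7a5, the leucine carrier of dividing cells, was at 191, 197 and 239 CPM in MIN and 127, 119 and 57.5 in adenoma (log2 fold change -1.04, SE 0.27, edgeR adjusted p = 0.0105). For Slc7a5 every adenoma culture was below every MIN culture, and the gene missed the threshold narrowly. Slc7a5 passed in 1 fit over all 9 samples, and both Slc7a5 and Slc3a2 passed under the Wald test of DESeq2. The neutral amino acid carrier Slc38a1 was at 344, 279.8 and 340.2 CPM in MIN and 461, 423 and 317 in adenoma (log2 fold change 0.32, SE 0.16, edgeR adjusted p = 0.13). Slc38a2, which adapts neutral amino acid uptake to supply, was at 268, 266 and 329 CPM in MIN and 288, 306 and 200.0 in adenoma (log2 fold change -0.12, SE 0.17, edgeR adjusted p = 0.591). The groups overlapped for both. Slc38a7, a lysosomal glutamine exporter, was lower in adenoma, at 18.3, 19.5 and 16.4 CPM against 26.5, 24.04 and 26.97 in MIN (log2 fold change -0.51, SE 0.12, edgeR adjusted p = 0.00691). That call was lost with the replicate number as a block (edgeR adjusted p = 0.0143), with library size alone and in each of the 6 fits that left out 1 library (highest edgeR adjusted p = 0.0282). Slc36a1, a proton-coupled amino acid carrier of brush border and lysosomes, was at 20.2, 17.4 and 15.5 CPM in MIN and 18.6, 15.01 and 14.7 in adenoma (log2 fold change -0.13, SE 0.16, edgeR adjusted p = 0.502). Slc6a14, a broad amino acid carrier often described in colon tumors, had at most 5 counts in any of the 9 cultures and was not tested.

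Levels can be compared between genes only per transcript length. Per kilobase of exon (GENCODE M21), Slc5a1 made up 60.5% to 66.3% of the summed level of the 25 genes of families 2 and 5 in the MIN cultures, 3.58% to 5.84% in adenoma and 1.38% to 2.37% after sulindac. The share of Slc2a1 was 17.2% to 25.7% in MIN, 72.1% to 77.8% in adenoma and 80.6% to 83.3% after sulindac. Slc2a1 thus held the first place in adenoma, although its own level was 53.4 ± 8.97 CPM per kb in MIN and 53.5 ± 4.03 CPM per kb in adenoma (SD, n = 3). Slc2a8, an intracellular glucose carrier named after its values were seen, came next in adenoma, with 8.22% to 8.78%. Among the 65 amino acid and peptide carriers, the leading gene in MIN was Slc1a5 with 16.4% to 18.5% of the summed level per kilobase. In adenoma it was Slc1a4, with 22.8% to 27.7%, and after sulindac Slc1a4 held 28.2% to 32.3% and Slc3a2 16.5% to 19.7%. In the monocarboxylate family, Slc16a1 held 33.3% to 35.1% and Slc16a3 33.6% to 35.6% in MIN, a difference smaller than their spread. In adenoma the shares were 31.1% to 36.8% for Slc16a1 and 40.5% to 49.3% for Slc16a3, without overlap. After sulindac they were 38.1% to 43.1% and 38.7% to 43.7%, which overlap.

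**Figure D3:**
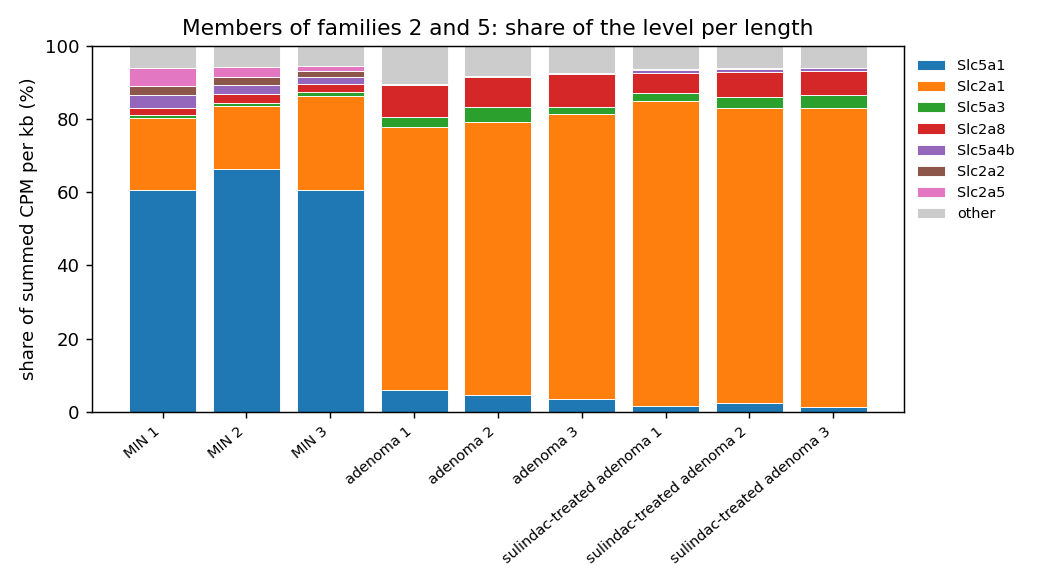
Share of the summed CPM per kilobase (y axis, %) held by the genes of families 2 and 5 in each of the 9 cultures (x axis), with 7 genes in colour and the other 18 in grey. Slc5a1 (blue) fills most of the 3 MIN bars and Slc2a1 (orange) most of the adenoma and sulindac-treated bars.

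Partner proteins and regulators of the carriers were described from a list of 15 genes. Of the 13 tested between adenoma and MIN, 9 were lower, 1 (Bsg) was higher and 3 did not pass. Hnf4a, a transcription factor of enterocyte genes, was at 1083, 1152 and 1271 CPM in MIN and 305, 274 and 245 in adenoma (log2 fold change -2.09, SE 0.14, edgeR adjusted p = 4.52e-06). Its relative Hnf4g was at 131, 157 and 124 CPM in MIN and 12.2, 14.8 and 8.82 in adenoma (log2 fold change -3.52, SE 0.20, edgeR adjusted p = 2.01e-06). Neither gene overlapped between the groups. Mlxipl, which encodes the carbohydrate-response factor that binds E-boxes, had a log2 fold change of -2.84 (edgeR adjusted p = 4.77e-06). Pdzk1 and Slc9a3r1, scaffold proteins of the brush border, had log2 fold changes of -2.09 and -0.55. The call of Slc9a3r1 was lost with the replicate number as a block (edgeR adjusted p = 0.0191) and held in 2 of the 6 fits that left out 1 library. Atf4, a transcription factor that raises amino acid carriers when amino acids are short, was at 372, 422 and 610.2 CPM in MIN and 207, 207 and 181 in adenoma (log2 fold change -1.24, SE 0.19, edgeR adjusted p = 0.00058). Txnip, Arrdc4 and Hif1a did not pass, and Emb and Tmem27 had too few counts to be tested.

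The second comparison asks which transporters differ between sulindac-treated and untreated adenoma. The changes were fewer, and most of those called were rises of amino acid and glucose carriers that were already well expressed. Of the 51 transporters tested, 10 rose and 2 fell with sulindac at an FDR of 1% (edgeR's quasi-likelihood test), and 39 did not pass. Of the called genes, Slc5a4b among the rises and Slc6a13 among the falls had at most 3 counts in every library of the lower group, so that they passed the filter on low counts only through the other group and had to differ. Of all 12962 genes tested, 8.32% were higher and 9.1% were lower. The median log2 fold change was 0.30 over the transporters tested and -0.01 over all genes. With scaling by library size alone, the median of all genes moved by -0.17, and 8 transporters were higher and 4 lower, so that the share of higher calls went from 83.3% to 66.7% among the transporters and from 47.8% to 23.3% among all genes. The lower count was also 4 without adenoma replicate 3. This comparison shares the untreated adenoma cultures with the first, so that a high or low adenoma value enters both.

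Slc1a4 rose further, from 469, 465 and 498 CPM in untreated adenoma to 1172, 1083 and 1102 after sulindac (log2 fold change 1.24, SE 0.10, edgeR adjusted p = 0.000155). The heavy chain Slc3a2 was at 462, 547 and 592 CPM after sulindac against 167, 157 and 145 in untreated adenoma (log2 fold change 1.78, SE 0.12, edgeR adjusted p = 0.0001). The glycine carrier Slc6a9 was at 186, 164 and 199 CPM after sulindac against 35.6, 35.7 and 29.6 (log2 fold change 2.45, SE 0.13, edgeR adjusted p = 3.99e-05). For these 3 genes each treated culture was higher than each untreated one. A share of 42.3% of the exonic length of Slc6a9 overlaps Ccdc24 on the other strand, and the strand used in counting is not given, but Ccdc24 had 26, 29 and 58 counts in adenoma and 3, 2 and 10 after sulindac. The glucose carrier Slc2a1 was at 369.9, 308 and 305 CPM after sulindac (log2 fold change 0.92, SE 0.11, edgeR adjusted p = 0.000827), without overlap with the untreated cultures. All 4 calls held in each fit that left out 1 library.

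**Figure D4:**
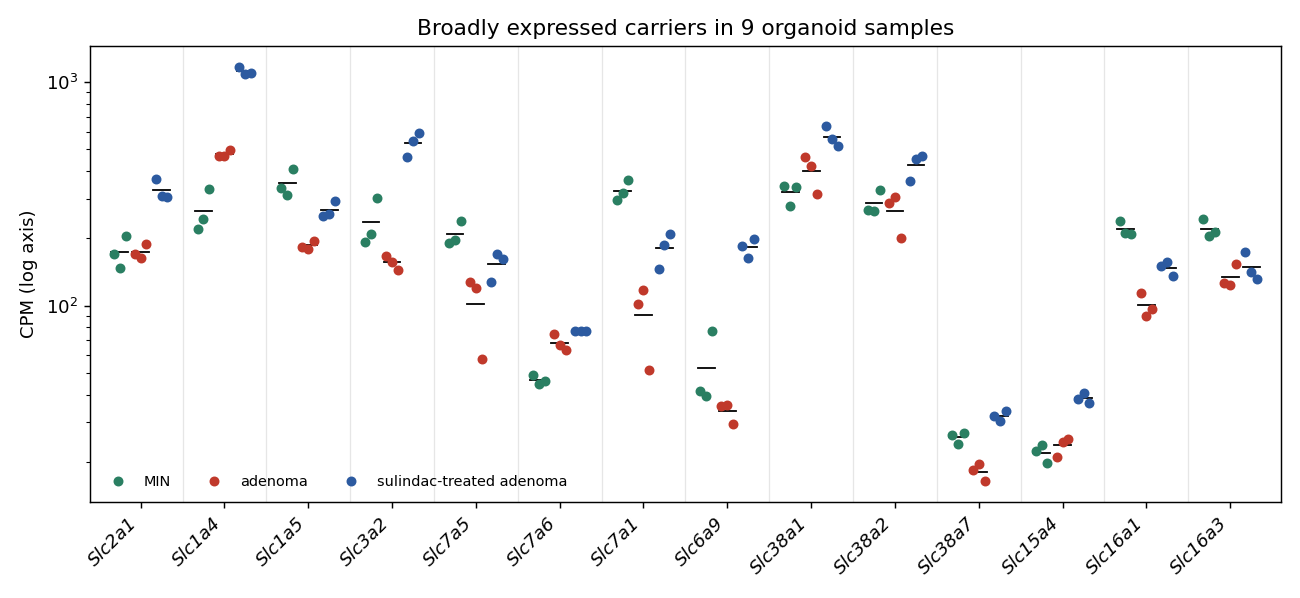
CPM (y axis, log scale) of 14 broadly expressed carriers (x axis) in each of 3 MIN (green), 3 adenoma (red) and 3 sulindac-treated adenoma (blue) cultures, with black lines at the group means. The blue points of Slc2a1, Slc1a4, Slc3a2, Slc6a9, Slc38a1, Slc38a2, Slc38a7, Slc7a6 and Slc15a4 lie above both other groups. The red points of Slc7a5 and Slc7a1 are spread widely, with adenoma replicate 3 lowest.

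Smaller rises were called for 5 other carriers. The lysosomal glutamine exporter Slc38a7 was at 32.1, 30.5 and 33.7 CPM after sulindac against 18.3, 19.5 and 16.4 in untreated adenoma (log2 fold change 0.84, SE 0.11, edgeR adjusted p = 0.00133). Slc15a4, a histidine and peptide carrier of lysosomes, was at 38.2, 40.5 and 36.7 CPM after sulindac against 21.1, 24.6 and 25.4 (log2 fold change 0.71, SE 0.11, edgeR adjusted p = 0.00182). Of its exonic length, 15.6% overlaps Gm43474 on the other strand, so its counts are uncertain, and its call was lost without sulindac replicate 1 (edgeR adjusted p = 0.0103). Slc7a4, a member of the cationic carrier group, was at 32.8, 36.1 and 32.1 CPM after sulindac against 21.96, 18.7 and 23.97 (log2 fold change 0.65, SE 0.11, edgeR adjusted p = 0.00366). Slc1a5 was at 252, 257 and 294 CPM after sulindac (log2 fold change 0.54, SE 0.10, edgeR adjusted p = 0.00451), below its MIN level in each culture. Slc16a1 was at 151, 157 and 136 CPM after sulindac (log2 fold change 0.57, SE 0.11, edgeR adjusted p = 0.00631), also below MIN. The treated and untreated cultures did not overlap for these genes, but the calls of Slc7a4, Slc1a5 and Slc16a1 were not stable to single libraries. Slc7a4 passed in 1 of the 6 fits that left out 1 library (highest edgeR adjusted p = 0.0165), Slc1a5 in 1 of the 6 fits that left out 1 library (highest edgeR adjusted p = 0.0244) and Slc16a1 in 2 of the 6 fits that left out 1 library (highest edgeR adjusted p = 0.0287). The fit that kept Slc7a4 and Slc1a5 was the one without adenoma replicate 3, and Slc16a1 also passed without adenoma replicate 1.

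The remaining gene that rose was Slc5a4b, the relative of Slc5a1. It had 1, 0 and 1 counts in untreated adenoma and 136, 110 and 106 after sulindac (192-fold higher by the ratio of pooled counts, 95% counting interval 52.8 to 1593). The treated level of 4.53, 3.36 and 3.08 CPM was below every MIN culture (log2 fold change -2.58, SE 0.29, edgeR adjusted p = 0.00011 for treated over MIN). The 2 genes that fell after sulindac were Slc6a13 and Slc15a2. Slc6a13 had 33, 71 and 89 counts in untreated adenoma and 0, 0 and 3 after sulindac (58.9-fold lower by the ratio of pooled counts, 95% counting interval 19.9 to 288). Slc15a2, a peptide carrier of high affinity, was at 8.23, 9.14 and 10.1 CPM in untreated adenoma and 3.43, 3.00 and 4.16 after sulindac (log2 fold change -1.37, SE 0.18, edgeR adjusted p = 0.00121). Neither gene overlapped between the groups, and the first was at or under the floor in all treated cultures.

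Other absorptive carriers described above did not pass after sulindac or had too few counts for a test. Slc5a1 was at 8.94, 11.4 and 6.49 CPM (log2 fold change -0.60, SE 0.24, edgeR adjusted p = 0.0876), and its groups overlapped. Slc2a2 was at 0.233, 0.275 and 0.349 CPM (log2 fold change -1.37, SE 0.34). Slc7a9 was at 0.467, 0.183 and 0.320 CPM (log2 fold change -1.66, SE 0.42) and Slc15a1 at 0.300, 0.367 and 0.465 CPM (log2 fold change -0.75, SE 0.35). Slc2a2, Slc7a9 and Slc15a1 did not pass, and each treated culture was below each untreated one. These genes passed the filter on low counts only through untreated adenoma, where they were higher. The order of their groups is therefore not separate evidence of a fall. Slc7a7, at 25.1, 18.8 and 19.99 CPM, had a higher mean after sulindac (log2 fold change 0.39, SE 0.16, edgeR adjusted p = 0.0842). Slc2a5, Slc3a1, Slc1a1, Slc6a19, Slc6a20a, Slc6a4, Slc7a8, Slc43a1 and Slc5a8 were not tested, and none of them had more than 12 counts in a treated culture. Of the 7 enterocyte markers tested after sulindac, Vil1 and Rbp2 were higher and Sis, Anpep and Mttp lower. Rbp2 had 6, 7 and 8 counts in untreated adenoma. It passed the filter on low counts only through the treated cultures, where it was high, so its call is no evidence of a rise. Of the 6 fits that left out 1 library, Rbp2 passed in 0, Vil1 in 2, Sis and Anpep in 3 each and Mttp in 4, and Rbp2 did not pass with a block (edgeR adjusted p = 0.012).

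**Figure D5:**
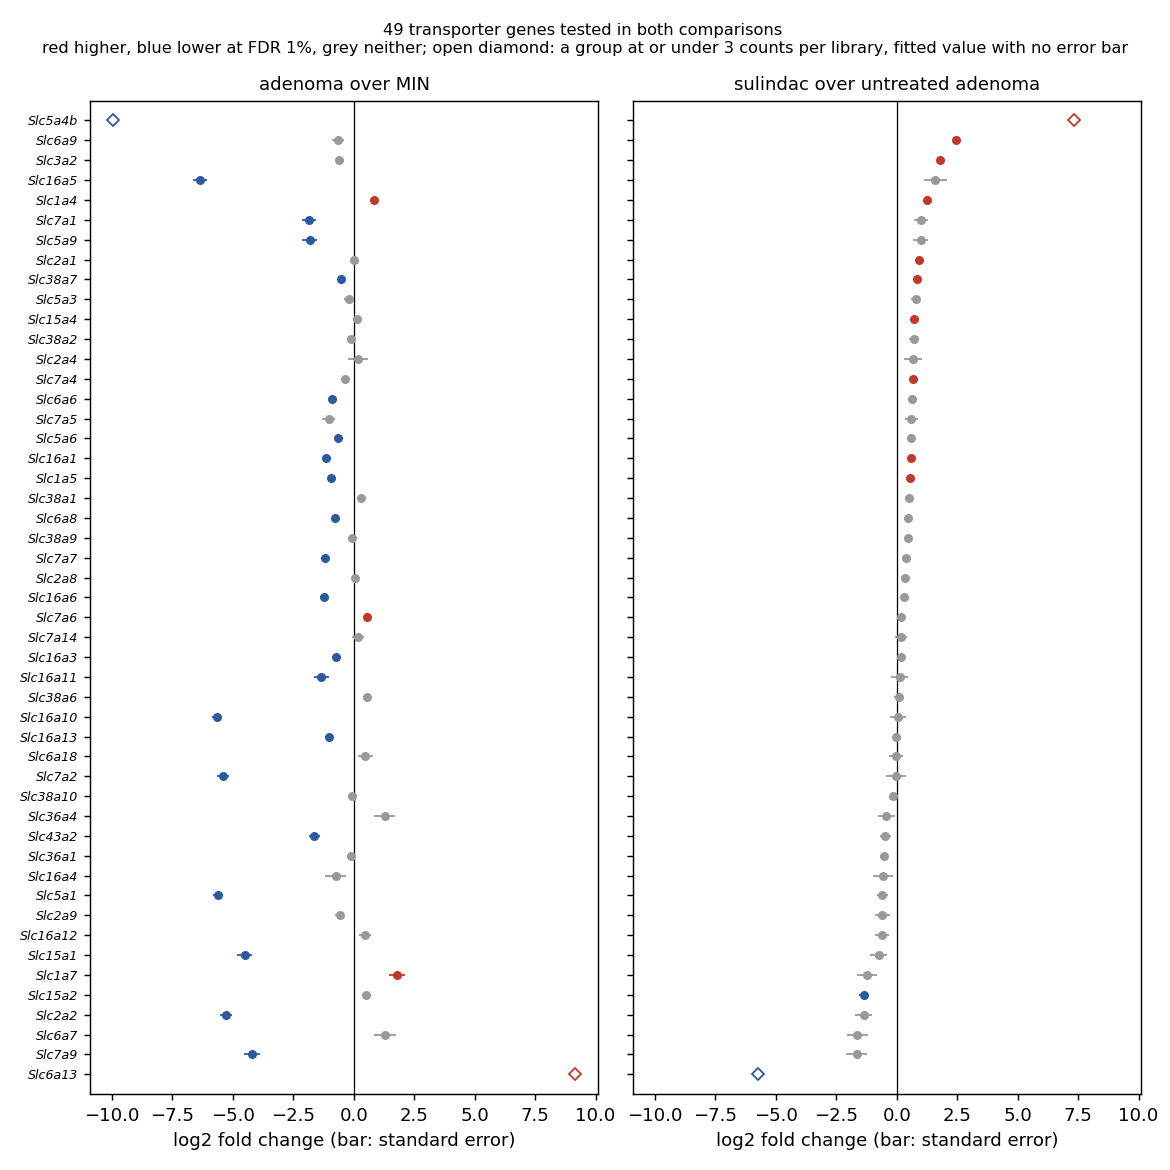
Log2 fold change (x axis, with standard error) of the 49 transporters tested in both comparisons (y axis, in the order of their change after sulindac), for adenoma over MIN on the left and sulindac over untreated adenoma on the right, on the same scale. Open diamonds mark fitted values of genes with a group at or under 3 counts per library, which depend on the prior count of the fit. Slc5a4b is at the top and Slc6a13 at the bottom on the right, with the opposite signs on the left, and both panels share the untreated adenoma cultures.

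Several other broadly expressed carriers had higher means after sulindac that did not pass. Under the Wald test of DESeq2, Slc7a1, Slc38a1, Slc38a2 and Slc5a3 did pass, as did the lower Slc36a1. Slc38a2 also passed with no filter on low counts and in 1 fit over all 9 samples. The arginine carrier Slc7a1 was at 145, 186 and 209 CPM (log2 fold change 1.00, SE 0.28, edgeR adjusted p = 0.0261). Slc38a2 was at 362, 455 and 466 CPM (log2 fold change 0.70, SE 0.18, edgeR adjusted p = 0.0174). The treated cultures of Slc7a1 and Slc38a2 were all above the untreated ones. Slc38a1 was at 634, 557 and 519.5 CPM (log2 fold change 0.52, SE 0.16, edgeR adjusted p = 0.0359), and Slc5a3, a sodium-coupled carrier of myo-inositol, at 32.1, 41.6 and 43.9 CPM (log2 fold change 0.79, SE 0.21, edgeR adjusted p = 0.021). Of the light chains of Slc3a2, Slc7a5 was at 127, 171 and 161 CPM (log2 fold change 0.59, SE 0.27, edgeR adjusted p = 0.126) and Slc7a6 at 76.9, 77.3 and 77.3 CPM (log2 fold change 0.19, SE 0.10, edgeR adjusted p = 0.174). The untreated spread of Slc7a5 was set by adenoma replicate 3, the lowest culture. Slc16a3 was at 174, 142 and 131 CPM (log2 fold change 0.16, SE 0.13, edgeR adjusted p = 0.401), with overlapping groups. Slc36a1 and Slc43a2 had lower means, with log2 fold changes of -0.54 and -0.47 (edgeR adjusted p = 0.0194 and 0.133). Slc1a7 had 12, 25 and 9 counts after sulindac and did not pass (log2 fold change -1.22, SE 0.41). It entered the test only through untreated adenoma, where it was higher.

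Of the 12 partner and regulator genes tested after sulindac, 2 were higher and 10 did not pass. Atf4 was at 207, 207 and 181 CPM in untreated adenoma and 368, 457 and 467 after sulindac (log2 fold change 1.12, SE 0.12, edgeR adjusted p = 0.000493). Every treated culture was above every untreated one, and the level was within the range of MIN or just below it (log2 fold change -0.12, SE 0.18, edgeR adjusted p = 0.578 for treated over MIN). Arrdc4, which encodes an arrestin that removes glucose carriers from the membrane, was at 63.4, 59.9 and 72.5 CPM in untreated adenoma and 174, 163 and 175 after sulindac (log2 fold change 1.39, SE 0.10, edgeR adjusted p = 0.000118). Its relative Txnip did not pass (log2 fold change -0.07, SE 0.27, edgeR adjusted p = 0.871). Bsg was at 3793, 4766 and 4551 CPM after sulindac (log2 fold change 0.65, SE 0.17, edgeR adjusted p = 0.0212).

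The third comparison sets sulindac-treated adenoma against MIN and reuses the cultures of the other comparisons. Of the 70 transporters tested, 40 were lower and 9 higher at an FDR of 1% (edgeR's quasi-likelihood test), and 21 did not pass. Of all 13551 genes tested, 26.8% were lower and 23% were higher. The median log2 fold change was -0.88 over the transporters and -0.03 over all genes, and 17 of the 40 had at most 3 counts in every treated library and had to differ. Slc5a1 was below MIN at a log2 fold change of -6.21 (SE 0.21) and Slc15a1 at -5.27 (SE 0.32). The 9 higher genes were Slc1a4, Slc6a9, Slc3a2, Slc2a1, Slc38a1, Slc15a4, Slc7a6, Slc5a3 and Slc38a2. Slc1a4 differed most among them, at 1172, 1083 and 1102 CPM after sulindac against 220.5, 245 and 331 in MIN (log2 fold change 2.07, SE 0.15, edgeR adjusted p = 6.6e-06). Slc6a9 was at 41.7, 39.6 and 76.6 CPM in MIN, all below the treated cultures (log2 fold change 1.80, SE 0.24, edgeR adjusted p = 0.000304). Slc3a2 (log2 fold change 1.18, SE 0.18, edgeR adjusted p = 0.000472) and Slc2a1 (log2 fold change 0.91, SE 0.14, edgeR adjusted p = 0.000418) were also above every MIN culture. Slc38a1 had a log2 fold change of 0.82 (SE 0.12), Slc15a4 of 0.81 (SE 0.10) and Slc7a6 of 0.73 (SE 0.08). The calls of Slc5a3 (log2 fold change 0.60, SE 0.15, edgeR adjusted p = 0.00698) and Slc38a2 (log2 fold change 0.57, SE 0.13, edgeR adjusted p = 0.00411) were lost without MIN replicate 1 or 2 or without sulindac replicate 2 or 3, with adjusted p up to 0.0296 and 0.0192 in the same edgeR test, and also in 1 fit over all 9 samples.

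Among the carriers lower in treated adenoma than in MIN, Slc7a1 (log2 fold change -0.86, SE 0.14, edgeR adjusted p = 0.000695), Slc16a1 (log2 fold change -0.58, SE 0.09, edgeR adjusted p = 0.000611) and Slc7a7 (log2 fold change -0.82, SE 0.13, edgeR adjusted p = 0.00054) had moderate differences. The call of Slc7a1 was lost in 1 fit over all 9 samples (edgeR adjusted p = 0.0123). Slc1a5, Slc7a5 and Slc7a4 did not pass, with log2 fold changes of -0.40, -0.46 and 0.29 (edgeR adjusted p = 0.0157, 0.0135 and 0.0843). Slc1a5 and Slc7a5 did pass with the replicate number as a block, with no filter on low counts and under the Wald test of DESeq2. Slc16a3 (log2 fold change -0.57, SE 0.12, edgeR adjusted p = 0.00333), Slc36a1 (log2 fold change -0.69, SE 0.13, edgeR adjusted p = 0.00209) and Slc15a2 (log2 fold change -0.89, SE 0.19, edgeR adjusted p = 0.00338) were lower, and each of these calls was lost on leaving out at least 1 library. Slc16a3 was lost without MIN replicate 1 or sulindac replicate 2 or 3 (edgeR adjusted p up to 0.0165). Slc36a1 was lost without sulindac replicate 2 (edgeR adjusted p = 0.01). Slc15a2 was lost without MIN replicate 1 or 2 or sulindac replicate 1 or 2 (edgeR adjusted p up to 0.0152).

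The 32 transporters tested in no comparison had at most 24 counts in any sample. They include 9 members of family 6, most of them carriers of the nervous system such as Slc6a5, and the light chains Slc7a10, Slc7a12 and Slc7a13, which had 0 counts in all 9 samples.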

How the data were processed

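RNA-seq libraries of 9 organoid cultures (3 MIN, 3 adenoma, 3 sulindac-treated adenoma) were used. The authors deposited 1 table of raw counts per gene symbol, without normalization, and the submitters' processing notes name RSEM, Bowtie2 2.2.4 and mm9. The annotation and the strand used in counting are not given in the sources used here. The sample titles gave each group and replicate number. For MIN replicate 1 the table holds 3 columns. The third equals the first and second added together in each of the 23955 rows, and it alone was used. Total counts ranged from 30881206 to 48412477.

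Counts were filtered with filterByExpr, scaled by TMM and tested in R 4.3.3 by the quasi-likelihood functions of edgeR 4.0.16 (glmQLFit, robust, and glmQLFTest), with only the groups compared in each fit, Benjamini-Hochberg adjustment over all genes tested and an FDR of 1%. CPM used TMM factors over all 9 samples and the 13892 genes kept. SE was obtained by dividing the log2 fold change by the root of the F statistic. Where a group had 0 counts in every library, the fold is a bound against 3 counts per library. Where its libraries had 1 to 3 counts at most, the fold is a ratio of pooled counts with a 95% exact interval. The scripts were tested on simulated counts.

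The transporters, their 12 roles and all marker and partner lists were chosen with earlier results of these data known. A few of the genes counted in these lists are not reported here. The genes named were 23 with a textbook role in gut or growing cells and, for each comparison and direction, up to 8 called genes with the largest change and no overlap between the groups. Slc16a5, Slc16a10, Slc2a8 and genes named only as members of a count fall outside this rule and were named after their values were seen. Exonic lengths, overlaps and shared 50-base stretches came from GENCODE M21, and promoter windows from RefSeq (GRCm38.p6). These differ from the build of the counts, so no coordinates of the counted genes are given. No protein sequences were used here. Same-numbered MIN and adenoma cultures deviated together from their group means across genes, but weakly (r = 0.126, 0.113 and 0.192). The labels do not say what a number marks, so whether it pairs the cultures is not settled. The main tests were run without pairing. A fit with the replicate number as a block was run as an alternative. The other alternatives were an FDR of 5%, a change of at least 2-fold, scaling by RLE or by library size alone, no filter on low counts or a filter that asks for 10 counts in each sample, 1 fit over all 9 samples, DESeq2 1.42.0 (Wald test) and leaving out each sample.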

Additional observations from a re-analysis of the deposited data

How the results depend on the processing

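None of the named transporters that passed in a comparison changed direction there under an alternative that tested it. Among those that did not pass, the log2 fold change ran across 0 for Slc2a1 (-0.11 to 0.14), Slc38a2 (-0.24 to 0.05) and Slc5a3 (-0.41 to 0.00) in adenoma over MIN and for Slc16a3 (-0.01 to 0.25) after sulindac. With an FDR of 5%, 8 transporters were higher in adenoma than MIN in place of 4, and after sulindac 21 were higher in place of 10 and 7 lower in place of 2. Of all genes, 25.4% were then higher in adenoma, and 15.7% higher and 18.3% lower after sulindac. Requiring a change of 2-fold left 2 higher in adenoma, 4 higher after sulindac and 3 higher in treated adenoma than MIN, against 12.5%, 2.82% and 11.1% of all genes. Requiring 10 counts in every sample, which removes genes near the floor, left 19 lower in adenoma, 16 lower in treated adenoma than MIN and 1 lower after sulindac, against 15.9%, 23.6% and 8.65% of the genes left. The Wald test of DESeq2 called 19 higher and 4 lower after sulindac (13.7% and 13.6% of all genes), and library size alone 4 lower. A fit over all 9 samples lost Slc7a1, Slc38a2, Slc5a3 and Slc5a9 in treated adenoma over MIN. With each replicate left out, the transporters higher and lower in adenoma numbered 2 to 5 and 39 to 42, after sulindac 6 to 12 and 2 to 4, and in treated adenoma over MIN 7 to 10 and 34 to 41. The lowest count for higher genes in adenoma came without MIN replicate 2, where Slc1a4 and Slc7a6 were lost, and the lowest after sulindac came without sulindac replicate 1, where Slc15a4, Slc16a1, Slc1a5 and Slc7a4 were lost. The cause was not tested. The shares of all genes called in the leave-out fits and the block fits are not given here. These counts therefore show only how stable the transporter calls were. In the fit with a replicate block for adenoma over MIN, 5 were higher and 40 lower. For sulindac over untreated adenoma (same-numbered cultures, r = 0.253, 0.208 and -0.074) a block gave 10 higher and 3 lower, with Slc16a1 lost. For treated adenoma over MIN (r = -0.030, 0.396 and 0.252) it gave 9 higher and 41 lower. Correlations over 3 replicates cannot settle whether the numbers pair the cultures. Of the 35 transporters not tested in adenoma over MIN for low counts, 3 (Slc16a9, Slc5a4a and Slc6a20b) passed when no filter was applied.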
